A study of Mus musculus with 3 samples.

Results

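The genes described here are 10 genes of cell adhesion and of the switch between epithelial and mesenchymal cell states, measured in J1 mouse embryonic stem cells (mESCs) treated with PD0325901 (PD). They were Cdh1, Epcam and Cldn6 on the epithelial side, Cdh2 and Vim on the mesenchymal side, and the repressor genes Snai1, Snai2, Zeb1, Zeb2 and Twist1. They were chosen by name, through the accession that each array probe carries, and make up 10 of the 20660 genes that could be named and 12 of the 55681 probes that were not controls. J1 is a line of strain 129S4/SvJae, labelled as derived from inner cell mass, and was grown on gelatin without feeder cells with 1000 U/mL of the cytokine LIF (leukemia inhibitory factor) in the medium. PD is a small molecule that inhibits the kinase MEK, and all 3 samples had received it at 1 µM for 24 h. The study prepared the replicates in independent experiments, and each was hybridised in 1 colour to its own array. The 3 arrays lay on 1 slide. Cells without PD were not analysed here, so the values below describe PD-treated cells and say nothing of an effect of PD.

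Epithelial cells are held together by E-cadherin, the product of Cdh1, which binds E-cadherin on the neighbouring cell and is anchored to actin through catenins. When cells pass into a mesenchymal state, as they do in gastrulation, Cdh1 is silenced and N-cadherin (Cdh2) and the intermediate filament protein vimentin (Vim) are made. The zinc finger proteins Snai1, Snai2, Zeb1 and Zeb2 repress Cdh1 by binding E-box sequences in its promoter, and the basic helix-loop-helix protein Twist1 acts in the same programme. Mouse ESCs grow as compact colonies whose cells are joined by E-cadherin.

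All 10 genes left a signal well above background on each of the 3 arrays. The same held for 72.7% of all named genes, where the brightest probe on average stood for a gene. Counted by probes, 11 of 12 were detected, against 72.4% of all named probes and 60.3% of all probes that were not controls. The exception was the second probe of Zeb2. Values are given as the processed signal of the scanner and as a level, which is the log2 of that signal minus the 75th percentile of the array, so that a level of 0 is the 75th percentile. Cdh1, Epcam, Vim and Zeb1 had levels above 0 on every array, and the other 6 genes had levels below 0 on every array. With the median of each array as the reference, 11 of the 12 probes lay above it. The brightness of a probe depends on its sequence as well as on the transcript, so a level places a probe on its array and does not rank the transcripts of different genes.

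**Figure D1:**
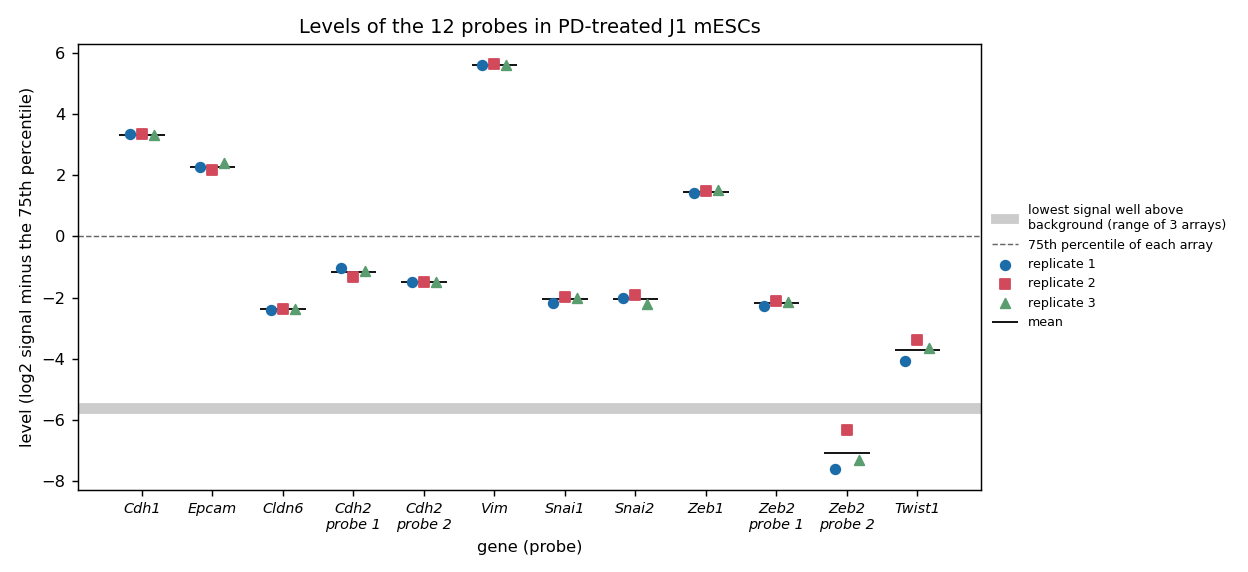
Levels (log2 processed signal minus the 75th percentile of the array, y axis) of the 12 probes of the 10 genes (x axis) on the 3 arrays of PD-treated J1 mESCs, with a bar at the mean of each probe. The second Zeb2 probe lies under the grey band, which spans the lowest signals well above background of the 3 arrays, and the other 11 probes lie above it on each array.

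On the epithelial side, the probe of Cdh1 stood 10 times on each array, and it was the only one of the 12 to do so. The mean signal of these spots was 5591, 5216 and 5247 on replicates 1 to 3, which corresponded to levels of 3.34, 3.34 and 3.31. The level of Cdh1 was thus 3.33 ± 0.016 (SD, n = 3 here and below), and no array stood apart. This agreement includes 1 dim spot on replicate 2, described below, without which the level of that array was 3.39. Against the error of the spots, replicate 2 differed from replicate 1 by -0.00056 ± 0.048 (SE) log2 units and replicate 3 from replicate 1 by -0.028 ± 0.048. Cdh1 did not differ between the arrays at the threshold of 0.05 (adjusted p = 0.839, limma's moderated F test), whereas 40.5% of the 284 probes with 10 spots did.

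One Cdh1 spot on replicate 2 was far dimmer than the others. On that array the 10 spots ran from 3771 to 5565 with a median of 5426, and the second lowest was 5011. On replicate 1 they ran from 5237 to 5894 (median 5624) and on replicate 3 from 4676 to 5526 (median 5303). The same position gave 5775 on replicate 1 and 5212 on replicate 3, both within the range of the other 9 spots. The dim spot carried no outlier flag, but it lay in the block of the array of replicate 2 with the most non-uniform spots, 46 of 187. It raised the SD between the spots of Cdh1 on replicate 2 to 0.17 log2 units, against 0.057 on replicate 1 and 0.072 on replicate 3. The median of this SD over the 10-spot probes was 0.070, 0.085 and 0.072 on replicates 1 to 3. Without the dim spot, the SD on replicate 2 was 0.050, the level there was 3.39, and limma's F test gave an adjusted p of 0.0692 (unadjusted p = 0.03). Whether the state of that block made the spot dim was not tested.

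**Figure D2:**
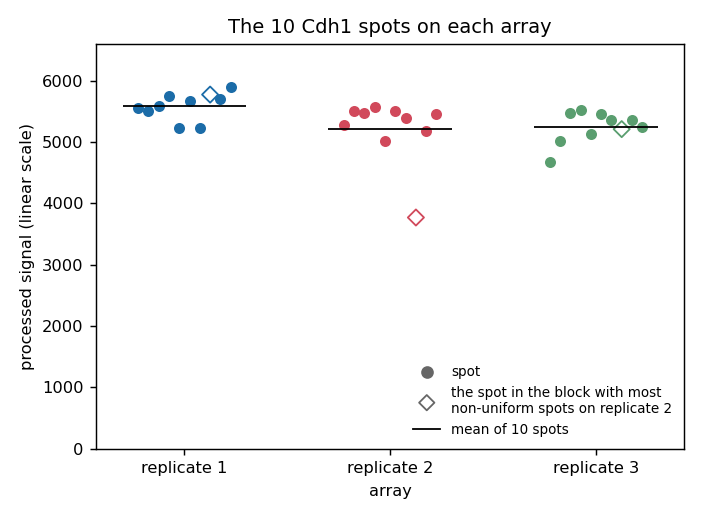
Processed signal (y axis, linear) of the 10 Cdh1 spots on each array (x axis), with the mean of the 10 as a bar. The open diamond is the position in the block that held 46 non-uniform spots on replicate 2: it gave 3771 there, below all other spots, and 5775 and 5212 on replicates 1 and 3.

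Epcam, which encodes an adhesion molecule of epithelial and pluripotent cells, had signals of 2688, 2298 and 2795 on replicates 1 to 3. Replicate 2 was the lowest array. The level was 2.29 ± 0.12, and the distance between the highest and the lowest array was 0.24. The error that the scanner software gives for such a difference of single spots was 0.20. That error followed the signal (269 at a signal of 2688 and 230 at 2298), so here and below it is not a spread measured between spots. The measured SD between spots of an array was smaller, with a median over 10-spot probes of 0.070 to 0.085 log2 units. With all detected probes split by level into 4 parts of equal size, 87.7% of those in the brightest part had a smaller SD than Epcam. Cldn6, a claudin of tight junctions in early embryonic epithelia, had signals of 103, 99.5 and 101. These agreed closely, with a level of -2.39 ± 0.028, and each was at least 8.71 times the lowest signal well above background of its array.

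The sequence before the start of Epcam and Cldn6 holds the E-box to which the Snail and Zeb proteins bind. It was searched as CACCTG, which reads CAGGTG on the other strand, in the RefSeq promoter windows of GRCm38.p6, 300 bases from 250 before the start of a gene. Windows, 9 in all, were given for 6 of the 10 genes (Epcam, Cldn6, Vim, Snai1, Zeb2 and Twist1), with several for Zeb2. The motif was found in those of Epcam, Cldn6 and Snai1, which are 3 of the 9, and in 20.2% of all 32851 windows. The stretches before the start are shown with the motif in capitals, because these letters are the form of E-box that Snail and Zeb proteins are known to bind. They read as follows, on the plus strand of the genome, which is the strand of these 3 genes.
Epcam, chr17:87635780-87635809, 187 bases before the start: gccagtagggccCACCTGctggaggaccgg
Epcam, chr17:87635948-87635977, 19 bases before the start: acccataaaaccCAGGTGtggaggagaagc
Cldn6, chr17:23679260-23679289, 93 bases before the start: gggaaacgcacgCAGGTGgctatcgccgca
Snai1, chr2:167538057-167538086, 126 bases before the start: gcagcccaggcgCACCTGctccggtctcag
A further match in Cldn6 began at base 41 of the transcript. The windows of Vim, Twist1 and Zeb2 did not hold these letters. Binding was not measured in this series, and a match is a description of the sequence alone.

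On the mesenchymal side, Vim gave signals of 26690, 25440 and 25480. No array stood apart, and the level was 5.61 ± 0.023. Fibroblasts also make vimentin, and their markers were read on the same arrays. Of 10 fibroblast genes, 6 were detected, against 72.7% of all named genes. They were Thy1 (level 0.24 ± 0.086), the collagen genes Col1a2 (-0.31 ± 0.23) and Col1a1 (-1.23 ± 0.039), the receptor genes Pdgfrb (-2.53 ± 0.20) and Pdgfra (-3.72 ± 0.060), and Dcn (-4.58 ± 0.15). Col5a2, Lum and Postn were detected on no array and Col3a1 on 1. The summed signal of the 10 genes was 1501, 1389 and 1489 on replicates 1 to 3, with 612 from Thy1 and 489 from Col1a2 on replicate 1. This sum adds probes of unlike brightness, so it does not measure the amount of fibroblasts and cannot be set against the signal of Vim. All 8 marker genes of embryonic stem cells were detected with levels above 0, among them Dppa5a (8.56 ± 0.068), Esrrb (6.28 ± 0.10), Zfp42 (5.62 ± 0.0059) and Pou5f1 (4.56 ± 0.42). The part of other cells in the Vim signal was not tested, and in a bulk sample many cells with little of a transcript cannot be told from few cells with much.

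Cdh2, the N-cadherin gene, was measured by 2 probes, both detected on all arrays. The first gave signals of 267, 206 and 238, a level of -1.17 ± 0.13, with replicate 1 the highest and replicate 2 the lowest. The second gave 195, 183 and 186, a level of -1.49 ± 0.0094. Its signals were also highest on replicate 1 and lowest on replicate 2, but after scaling its levels lay within 0.019 of each other. With the first probe the distance between the extreme levels was 0.27, near the scanner error of 0.21 for such a difference. The spot of the second probe lay in another block of replicate 2 with many non-uniform spots (18), and its signal there was not apart from the others.

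Among the repressors, Zeb1 had signals of 1476, 1421 and 1504 and a level of 1.47 ± 0.045, with no array apart. Its relative Zeb2 was seen by only 1 of its 2 probes, although both carry the same transcript accession. The first gave 115, 117 and 118, a level of -2.18 ± 0.070. The second gave 2.80, 6.37 and 3.28, under the limit of detection of the 3 arrays, whose lowest signals well above background were 10.1, 11.4 and 10.3. These 3 signals were still marked positive and significant, the looser flag of the scanner software. Zeb2 thus counted as detected through its brighter probe, and with every probe required 9 of the 10 genes were detected.

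Snai1 and Snai2 encode the Snail and Slug proteins. Snai1 gave 122, 130 and 131, a level of -2.05 ± 0.10, with replicate 1 the lowest. Snai2 gave 137, 135 and 113, a level of -2.05 ± 0.15, with replicate 3 the lowest. In both genes the extreme arrays lay within 1.39 times the scanner error of their difference. All these signals were at least 11.05 times the lowest signal well above background of their array.

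Twist1 had the largest SD between arrays of the 11 detected probes. Its signals were 32.8 on replicate 1, 49.0 on replicate 2 and 41.7 on replicate 3, which were 3.25, 4.29 and 4.06 times the lowest signal well above background. Replicate 1 was the lowest and replicate 2 the highest. The level was -3.70 ± 0.34, and the distance between these arrays was 0.69 log2 units, 2.91 times its scanner error. It was the only single-spot probe of the 11 with a distance of more than 2 such errors. Twist1 lay in the dimmest of the 4 parts of the detected probes, where 84.7% had a smaller SD. Its spot lay outside the blocks with many non-uniform spots.

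Over the 11 detected probes the median SD between arrays was 0.070 log2 units, from 0.0094 for the second Cdh2 probe to 0.34 for Twist1. Over all 33474 detected probes with an unflagged spot on every array it was 0.090. These medians are not matched for level. Over all detected probes, the median SD was 0.19 in the dimmest of the 4 parts and 0.058 in the brightest. The SD of Cdh1 also rests on means of 10 spots, and those of the other genes on single spots. Without replicate 1 the median of the detected probes of the 10 genes was 0.027. None of the 11 probes had arrays more than 1 log2 unit apart, which was the case for 1.85% of all detected probes.

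**Figure D3:**
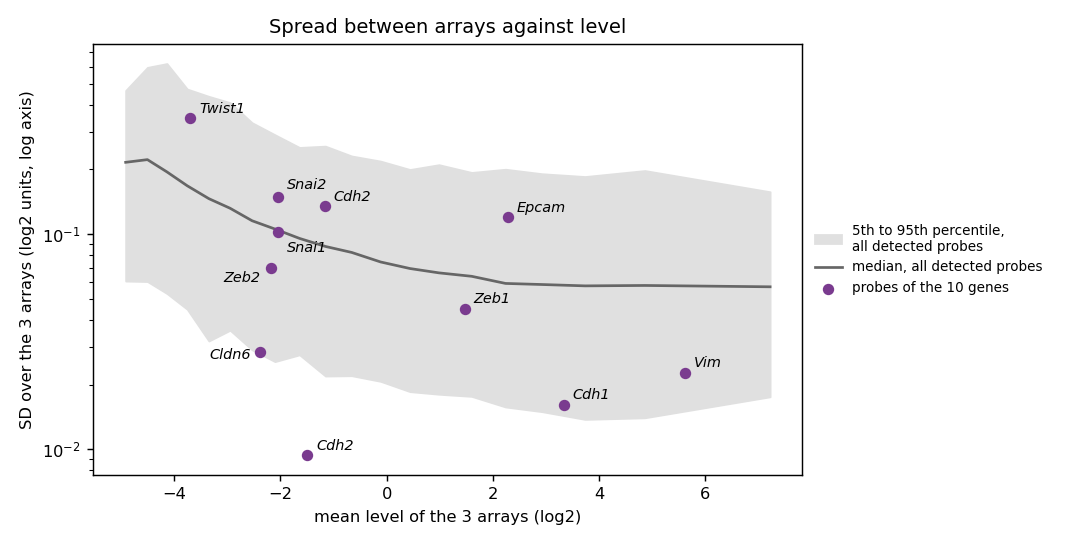
SD over the 3 arrays (y axis, log scale) against the mean level (x axis) for the 11 detected probes of the 10 genes. The grey band and line give the 5th to 95th percentile and the median of all 33474 detected probes in 20 bins of level; Twist1, at 0.34, lies inside the band, and the second Cdh2 probe, at 0.0094, lies below it.

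The partners of these genes were then read from lists of junction proteins, markers and repressors. Of 80 listed genes, all on the array, 71 were detected (88.8%), against 72.7% of all named genes. The lists were chosen with earlier results of these data known, and the part of that choice in the difference was not tested. Cadherins act through catenins at adherens junctions, and 12 of the 14 genes of these junctions were detected. They included the catenin genes Ctnna1 (level 6.31 ± 0.026), Ctnnb1 (4.89 ± 0.029) and Ctnnd1 (4.11 ± 0.025), which link E-cadherin to actin and hold it at the membrane, and the nectin gene Nectin2 (3.56 ± 0.064). Of the 12 detected, 7 had levels above 0, a count for which the share over all detected genes was not computed. Cdh5, the cadherin of blood vessel lining, was detected on no array and Nectin4 on 2. Cdh3, the P-cadherin gene, was detected with signals of 867, 887 and 734.

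All 12 tight junction genes were detected. They included the adhesion molecule gene F11r (3.38 ± 0.049) and the scaffold genes Tjp1 (3.30 ± 0.055) and Tjp3 (2.16 ± 0.062). The other claudins listed had levels of 2.07 ± 0.12 (Cldn12), 0.46 ± 0.26 (Cldn7), -1.11 ± 0.37 (Cldn4) and -1.90 ± 0.18 (Cldn3). Of 7 desmosome genes 5 were detected, among them Pkp3 (3.48 ± 0.14), Pkp2 (3.32 ± 0.054), Pkp4 (1.22 ± 0.0073) and Dsp (0.91 ± 0.031). The desmosomal cadherin gene Dsc2 was detected on 2 arrays and Pkp1 on 1.

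Of 16 epithelial regulators and markers 15 were detected. They included the protease inhibitor genes Spint1 (3.29 ± 0.068) and Spint2 (3.19 ± 0.057) and the genes of the transcription factors Ovol2 (3.02 ± 0.069) and Grhl3 (2.25 ± 0.027). Of the 15 detected, 8 had levels above 0 and the others had levels below 0. Of 14 mesenchymal markers 13 were detected as well. They included those of the matrix proteins Sparc (7.44 ± 0.010) and Fn1 (6.67 ± 0.027), of the actin-binding protein Tagln (3.59 ± 0.045) and of the integrin subunit Itga5 (0.59 ± 0.063), and Mmp9 was detected on 2 arrays. Of the 13 detected mesenchymal markers, 5 had levels above 0 and the others had levels below 0. Over all detected probes the median level was -0.91, and the brightest of the 4 parts began at 1.93. The share of all detected genes with levels above 0 was not computed, so the counts do not set the lists apart. Sparc and Fn1 are also made by primitive endoderm. All 7 genes of that lineage were detected, of which Sparc and Lama1 (4.21 ± 0.030) had levels above 0, whereas those of Gata4 (-2.39 ± 0.095) and Gata6 (-2.53 ± 0.10) were below 0. Foxa2 of this list was detected by 1 of its 2 probes. Of 7 genes of primitive streak and mesoderm, where Snai1 acts in the embryo, 4 were detected: Kdr (3.89 ± 0.15), Eomes (0.033 ± 0.17), Tbx6 (-1.79 ± 0.051) and Gsc (-2.32 ± 0.17). Only 1 of the 2 probes of Kdr was detected on all arrays. T was detected on 2 arrays, Mesp1 on 1 and Mixl1 on none.

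Of 8 other genes that repress epithelial genes, 5 were detected. They were Tcf3 (2.88 ± 0.035), Tcf4 (2.69 ± 0.097), Klf8 (1.44 ± 0.068), Gsc and Snai3, the latter with signals of 26.9, 29.3 and 21.8. Prrx1 was detected on no array and Foxc2 and Twist2 on 1 each. Twist2, the relative of Twist1, gave 2.09, 42.1 and 3.46, so that replicate 2 stood far above the others. All 10 genes of proteins that the Snail and Zeb factors recruit or that control their stability were detected. They included the histone deacetylase gene Hdac1 (6.90 ± 0.038), the corepressor genes Ctbp2 (5.25 ± 0.014) and Ctbp1 (4.51 ± 0.048) and the histone demethylase gene Kdm1a (5.08 ± 0.034). Besides Cdh1, 5 listed genes had probes with 10 spots, and 3 of them differed between the arrays by limma's F test, as did 40.5% of all 10-spot probes. The error of this test is that between spots of an array, so it compares these 3 arrays and does not take in the spread between cultures. The histone deacetylase gene Hdac2 had levels of -1.23, -1.34 and -1.09 (adjusted p = 1.16e-05), and the smooth muscle actin gene Acta2 had 0.27, 0.40 and 0.23 (adjusted p = 0.00279). Fbxl14 encodes a ubiquitin ligase subunit that marks Snai1 for degradation, and its levels were 2.74, 2.81 and 2.73 (adjusted p = 0.0441). Without replicate 2 the adjusted p from limma was 0.0314 for Hdac2, 0.602 for Acta2 and 0.856 for Fbxl14, and without replicate 3 it was 0.0841 for Fbxl14. With the array median as the reference it was 0.107 for Acta2 and 0.544 for Fbxl14, and after normexp background correction all 3 calls were lost (0.0877 for Hdac2, 0.434 for Acta2 and 0.732 for Fbxl14). The desmoplakin gene Dsp and Pdgfra did not pass the threshold (adjusted p = 0.201 and 0.359, limma).

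**Figure D4:**
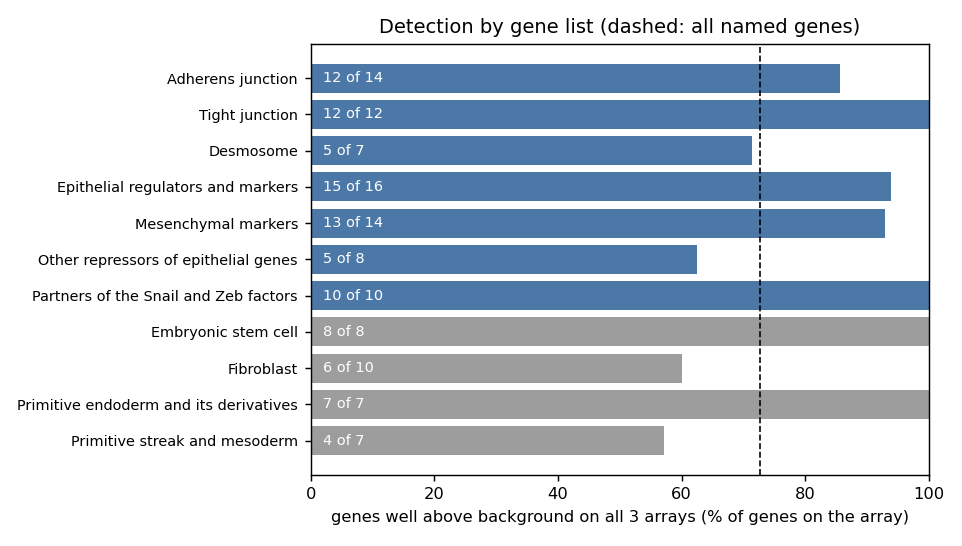
Share of the genes of each list that were well above background on all 3 arrays (x axis, % of the listed genes on the array), with the counts in the bars. Blue bars are lists of junction, epithelial, mesenchymal and repressor genes, grey bars are cell type markers, and the dashed line is the share of all named genes, 72.7%.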

How the data were processed

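Total RNA of 3 PD-treated samples was labelled with Cy3 and hybridised to Agilent mouse arrays. Per the file headers, the deposited intensities were made with Agilent Feature Extraction 10.7.3.1, which subtracted background and trends within each array and set flags for each spot. The authors did not normalize these intensities between arrays. The authors also deposited a table of log2 values, whose normalization is not given in the sources used here. Probes were named by accession through the RefSeq table of GRCm38.p6, which matched 27235 of 55681 probes. The grid refers to mm9, so no coordinates of probes are given.

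Spots without outlier flags were averaged as log2, and the 75th percentile over non-control probes was subtracted. Detection of a probe required the flag well above background on 50% or more of its spots, and no spot was saturated. For genes with several probes the brightest one on average was taken. Probes with 10 spots were compared between arrays with limma (3.58.1, R 4.3.3) by a moderated F test, with Benjamini-Hochberg adjustment over 284 probes, after the test had been tried on simulated data. This test, and every SD, describes these 3 samples, whose number limits the precision. The array was divided into 48 blocks, and 6 held at least 10 non-uniform spots on replicate 2. The genes and lists were chosen with earlier results of these data known. Named were the 10 genes, listed genes that were not detected and those detected with the highest levels, up to 4 per list, a choice of what to name and no comparison of genes. A few listed genes that this rule names are not reported here. Other listed genes (Cdh3, the claudins, Snai3, those with 10 spots such as Fbxl14, Hdac2 and Dsp, and further fibroblast and lineage markers) were named after their values were seen. Alternatives were other scalings, normexp background correction, other rules of detection, the deposited log2 table, and the omission of single replicates.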

Additional observations from a re-analysis of the deposited data

How the results depend on the processing

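No paired analysis was possible because there is only 1 group, PD. All 10 genes stayed detected under the looser flag, with detection on at least 1 array and without any replicate, and 9 did with every probe required. A gene detected on all 3 arrays cannot be lost when 1 array suffices or a replicate is omitted, so these rules do not test the count. The looser flag also passed the second Zeb2 probe on all 3 arrays. The listed genes detected numbered 67 to 77 over the alternatives. The shares of all named genes under these other rules were not computed. With the median of each array in place of the 75th percentile, 11 of the 12 probes had levels above 0, against 4, because the reference of the scale is then lower. No detected probe had arrays more than 1 log2 unit apart under any scaling, and without a filter on dim probes 1 did, the second Zeb2 probe. The median SD of the probes was 0.065 to 0.086 under other settings and 0.027 to 0.070 when 1 replicate was left out. The mean level of each of the 12 probes moved by at most 1 SD after quantile normalization, and 10 of 12 did so in the deposited table. Leaving out 1 of 3 arrays cannot move a mean by more than 1 SD of the 3, so omitting a replicate does not test the levels by this rule. All 12 moved by more under the median, the percentile over detected probes and normexp correction. The median and the percentile over detected probes change the reference of the scale for all probes alike. Normexp correction started from the median signals of spots and background, not from the processed signals, and added an offset of 50, so it changed more than 1 step. The 10-spot probes that differed numbered 23 after normexp correction, and the part of each change in this was not tested. They numbered 76, 28 and 86 without replicates 1, 2 and 3, against 115. Cdh1 did not pass the threshold under any setting, with adjusted p from limma of 0.0692 to 0.995. The 2 settings that left out spots of replicate 2 were chosen after seeing the data, and without its 6 blocks with many non-uniform spots the adjusted p was 0.0908. Of the 5 other listed genes with 10 spots, 3 differed between the arrays, against 2 with the array median, where Dsp passed (adjusted p = 0.00034, limma), 4 after quantile normalization, where Pdgfra passed (0.0426), and 0 after normexp correction. Without the 6 blocks Fbxl14 did not pass (0.115). Dim signals limit Twist1 and the second Zeb2 probe most.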

Other observations

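Besides Zeb2, some of the listed partner genes were seen by only a part of their probes. Of 80 such genes 24 had more than 1 probe, and in 4 of them some probes were detected on all arrays and others were not. They were the hyaluronan receptor gene Cd44 (1 of 4 probes detected), the cadherin genes Cdh11 (1 of 2) and Cdh4 (2 of 3), and S100a4 (1 of 2). The detected probe of Cd44 gave 162, 135 and 147 on replicates 1 to 3, and that of Cdh11 gave 95.4, 90.6 and 101. With every probe required, 67 of the 80 genes were detected, against 71.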
